A study of Mus musculus with 26 samples.

Results

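The thymocytes of OT-1 and TG6 mice were compared at the first step of positive selection, with the 3 OT-1 and the 3 TG6 libraries of the stage labelled early positive selection, 6 of the 26 libraries in the series. The libraries were chosen by line and stage alone, and no measured value was used. OT-1 mice carried the OT-1 T cell receptor (TCR) transgene on a Rag2 knockout and the C57/BL6 background. TG6 mice carried the TG6 receptor transgene with the H2b/d haplotype and a C57/BL6 x B6.C-H2d/bByJ background, and their labels name no Rag knockout. The methods of the study name none either for the TG6 mice used in RNA sequencing. F5 mice, used here as a reference, carried the F5 receptor on a Rag1 knockout and the C57/BL6 background. All 9 early libraries came from sorted thymus cells that were CD4+CD8+CXCR4+CCR7-. In the study TG6, F5 and OT-1 stand for low, intermediate and high self-reactivity, so the comparison asks how the cells of the least and the most self-reactive receptor differed when selection began. Receptor, Rag genotype, strain and H2 haplotype differ together between OT-1 and TG6 and cannot be told apart.

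Positive selection is the step at which a thymocyte that carries both CD4 and CD8 receives a weak signal through its TCR from self peptide on MHC, and is thereby kept alive. The signal switches on immediate early transcription factors and surface molecules such as CD5 and CD69, ends the recombination of receptor genes, and starts the program that leads to a CD4 or CD8 single positive cell. CD5 is a brake on TCR signalling whose level follows the strength of the self signal. Transgenic receptors restricted to MHC class I, like these, direct cells to the CD8 lineage.

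Values are normalized counts of gene symbols. Tests were run on the 16372 of 46517 symbols that reached 10 in 2 or more libraries. The third library of mature TG6 cells stood apart from the others of its group, and it enters the estimate of the spread. The summed values of a library lay between 16187000 and 18041500 in the 9 early libraries. OT-1 and TG6 libraries correlated at 0.969 to 0.976 within a line and at 0.934 to 0.947 between the lines. Transcripts of the mitochondrial genome made up 2.55 to 3.19% of the summed values in OT-1, 1.75 to 2.22% in F5 and 1.94 to 2.31% in TG6. Where 3 values are given for a gene in a line, they are its normalized counts in replicates 1, 2 and 3. Differences are given as the OT-1 mean minus the TG6 mean of log2(value + 1), with the standard error of the difference, and p-values are from limma, adjusted by the Benjamini-Hochberg method over all genes tested. A gene is called higher or lower where the adjusted p is under 0.05. The labels call the libraries biological replicates and do not say whether each came from its own mouse, so the p-values measure the spread between these libraries. In sorted cells, more cells of a type and more RNA per cell cannot be told apart.

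Of the genes tested, 4555 (27.8%) were called, 15.4% as higher and 12.4% as lower in OT-1. The 3 OT-1 values did not overlap the 3 TG6 values in 7640 genes (46.7% of those tested), and 4426 (27.0%) were both called and without overlap. Without the third mature TG6 library, 5395 were called, 2989 higher and 2406 lower. The called differences were mostly moderate, with 1675 genes (10.2%) beyond 2-fold. Beyond a log2 difference of 1, 865 were higher and 810 lower. Beyond 4 the numbers were 46 and 61. The direction of small differences rested on the scaling of the libraries. When each library was scaled to the same total the median of all genes moved by −0.11, and 1938 genes were called higher and 2805 lower.

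**Figure D1:**
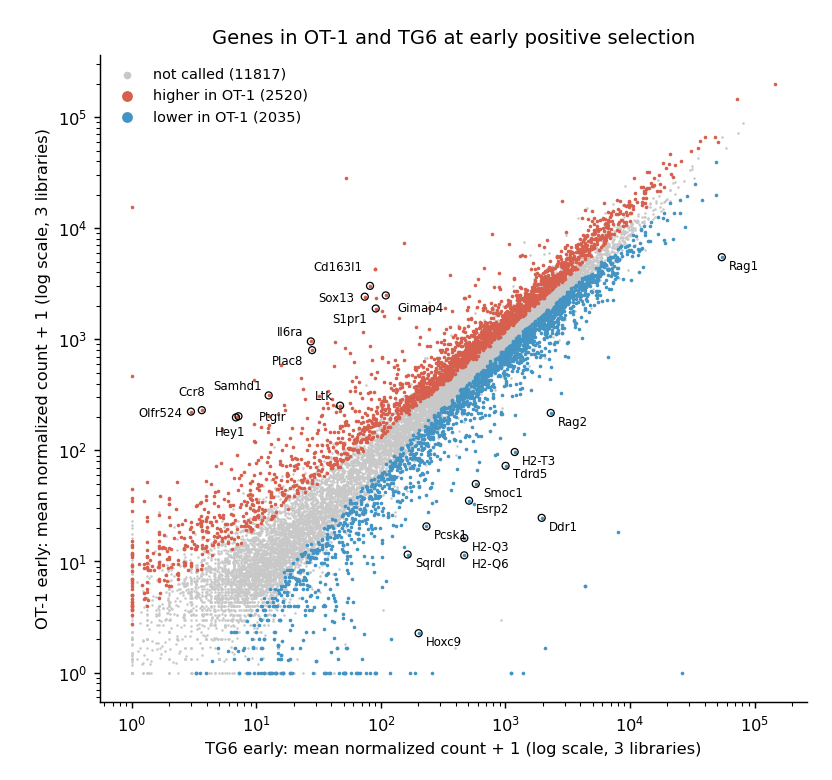
Each point is a gene tested, with its TG6 mean on the x axis and its OT-1 mean on the y axis as normalized count + 1 over 3 early libraries each, both on log scales, and color marks the 2520 genes called higher and the 2035 called lower in OT-1. Circles mark named genes, with Olfr524 (6.24) and Ccr8 (6.08) at the upper left and Hoxc9 (-6.89) and Ddr1 (-6.29) at the lower right.

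The largest increases in OT-1 took in receptors, a transcription factor of gamma delta T cells and genes of cells about to leave the thymus. Ccr8, a chemokine receptor, had 263, 194 and 232 in OT-1 and 2.97, 3.98 and 0.968 in TG6. The groups lay far apart, with a log2 difference of 6.08 ± 0.41 (adjusted p = 5.0e-10). Il6ra, the alpha chain of the interleukin 6 receptor, had 1063, 982 and 828 in OT-1 and 37.1, 30.1 and 11.8 in TG6, and a log2 difference of 5.27 ± 0.27 (adjusted p = 4.4e-12). Cd163l1, a scavenger receptor known from gamma delta T cells, had 3248, 2689 and 3145 in OT-1 and 139, 64.6 and 38.7 in TG6, and a log2 difference of 5.40 ± 0.37 (adjusted p = 7.3e-10). Sox13, a transcription factor of gamma delta T cells, had 2448, 2472 and 2339 in OT-1 and 85.5, 109 and 25.1 in TG6, and a log2 difference of 5.27 ± 0.42 (adjusted p = 6.1e-09). Groups without overlap were a condition for naming these 4 genes. In F5 the mean of Sox13 was 30.5 ± 11.5 (SD, n = 3) and that of Il6ra 30.9 ± 4.49 (SD, n = 3), both on the TG6 side.

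Gimap4, a GTPase of the immune-associated family that appears as thymocytes mature, had 2503, 2236 and 2717 in OT-1 and 116, 116 and 92.4 in TG6. Its libraries varied little within a line, and its difference had the smallest p of the genes named here, with a log2 difference of 4.51 ± 0.17 (adjusted p = 2.4e-14). S1pr1, the sphingosine phosphate receptor by which mature thymocytes exit to the blood, had 2303, 1923 and 1456 in OT-1 and 99, 69.6 and 101 in TG6, and a log2 difference of 4.38 ± 0.43 (adjusted p = 1.3e-07). Samhd1, a hydrolase of deoxynucleotides, had 296, 444 and 196 in OT-1 and 11.6, 18.5 and 4.48 in TG6, and a log2 difference of 4.75 ± 0.34 (adjusted p = 1.4e-09). Ptgir, the prostacyclin receptor, differed by 4.87 and Plac8 by 4.83. The olfactory receptor gene Olfr524 had 283, 147 and 238 in OT-1 and 2.97, 1.99 and 0.968 in TG6. Since the TG6 values were at or under 3, its mean is given as at least 74.1-fold higher in OT-1. The spread was wide for the receptor tyrosine kinase gene Ltk, which had 258, 240.4 and 258 in OT-1 and 2.08, 1.05 and 135 in TG6, and for the Notch target Hey1, which had 200.2, 352 and 53.6 in OT-1 and 8.02, 7.97 and 2.51 in TG6. The third TG6 library stood far above the other TG6 libraries for Ltk, and the third OT-1 library below the other OT-1 libraries for Hey1.

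Among the 12 genes named for the largest decreases were Rag1 and Rag2, described below, and 4 genes on chromosome 17 in the H2 region, Ddr1, H2-Q6, H2-Q3 and H2-T3. Ddr1, a collagen receptor, had 25.3, 24.4 and 21.4 in OT-1 and 1687, 1838 and 2331 in TG6, with a log2 difference of -6.29 ± 0.28 (adjusted p = 5.2e-13). H2-Q6, a nonclassical MHC class I gene, had 4.21, 14.4 and 12.5 in OT-1 and 422, 529 and 445 in TG6, and a log2 difference of -5.50 ± 0.41 (adjusted p = 2.4e-09). H2-Q3, another gene of that cluster, had 20.0, 11 and 14.8 in OT-1 and 419.6, 453 and 525 in TG6, with a difference of -4.87. The F5 means were 38.7 ± 5.19 (SD, n = 3) for Ddr1, 6.27 ± 2.04 (SD, n = 3) for H2-Q6 and 12.9 ± 1.50 (SD, n = 3) for H2-Q3, and none of these 3 genes was called between OT-1 and F5. H2-T3, the thymus leukemia antigen gene, had 80.8, 102 and 105 in OT-1 and 981, 1044 and 1529 in TG6, with a difference of -3.60. Its F5 mean was 18.5 ± 9.35 (SD, n = 3), below OT-1 by a log2 difference of 2.46 (adjusted p = 0.019). The homeobox gene Hoxc9 had 0, 3.79 and 0 in OT-1 and 178, 203 and 217 in TG6, with a log2 difference of -6.89 ± 0.62 (adjusted p = 3.5e-08). Sqrdl, which encodes a mitochondrial sulfide oxidase, was lower in OT-1 alone: it had 17, 8.95 and 5.73 in OT-1 and 182, 175 and 132 in TG6, and its F5 mean of 235 ± 19.8 (SD, n = 3) was at the TG6 level. The splicing regulator Esrp2 differed by -3.82, Smoc1 by -3.63 and the prohormone convertase gene Pcsk1 by -3.48.

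By difference in normalized counts, which also depends on gene length and level, the 8 genes named as gaining most, with receptor segments and ribosomal protein genes left out, included Eef1a1, chaperones and actin binders. Eef1a1, the factor that brings aminoacyl-tRNA to the ribosome, had 149502, 158525 and 133798 in OT-1 and 76112, 71739 and 70318 in TG6. Tmsb10, a binder of actin monomers, had 17871, 18936 and 15696 in OT-1 and 2907, 3178 and 2499 in TG6, with a log2 difference of 2.61 ± 0.19 (adjusted p = 1.4e-09), and Lcp1, a bundler of actin filaments, had 15099.8, 13514 and 14767 in OT-1 and 4932, 4267 and 3750.0 in TG6. The OT-1 values of these 3 genes were above every TG6 value, as the rule that chose them required. Hsp90ab1 (a constitutive Hsp90), Hspa8 (a constitutive Hsp70), Zfp36l2 (a protein that directs mRNA decay) and the chromatin remodeler gene Chd3 were also higher, by 1.18, 1.24, 1.50 and 1.57. The mitochondrially encoded subunit mt-Nd5 was higher by 1.17 but was not called without the second TG6 library (adjusted p = 0.057). By the same rule, those that lost most were Rag1, Cd8a, Cd8b1, Cd4, Dntt, Rmnd5a, Glcci1 and Plxnd1, and most of them belong to the CD4+CD8+ stage described below. Rmnd5a, a subunit of a ubiquitin ligase, had 10059.9, 9596 and 11009 in OT-1 and 26262, 26132 and 29919 in TG6, with a log2 difference of -1.42 ± 0.10 (adjusted p = 8.2e-10).

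The genes that a TCR signal switches on were higher in OT-1 where they were called. Of 31 such genes, 14 were higher (45.2%) and 0 lower, beside 15.4% and 12.4% of all genes tested. Their median log2 difference was 1.27 against −0.0022 over all genes tested. Itm2a, a membrane protein gene switched on at positive selection, had 8636, 10468 and 7537 in OT-1 and 785, 852 and 717 in TG6, with a log2 difference of 3.49 ± 0.21 (adjusted p = 5.3e-11). Its F5 mean of 2564 ± 829.9 (SD, n = 3) lay between the lines. Cd5 had 11789.7, 11682 and 12134 in OT-1 and 6039.9, 5712 and 5463 in TG6, with a log2 difference of 1.05 ± 0.18 (adjusted p = 0.00021), and Cd69, a marker of recent activation, had 760.4, 796 and 1533 in OT-1 and 383, 364 and 473 in TG6, with a log2 difference of 1.27 ± 0.32 (adjusted p = 0.0049). Cd53, a tetraspanin, differed by 2.12 (adjusted p = 1.8e-09) and Rgs1, a brake on G protein signalling, by 2.85 (adjusted p = 5.0e-05). Each of these 5 surface and feedback genes was higher in every OT-1 library than in any TG6 library. Of the 12 such genes on the list, 7 were called and 5 were not. Over all genes tested, 4426 of the 4555 called were without overlap as well.

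The immediate early transcription factors were less even between the libraries of a line. Fos, a subunit of AP-1, had 2273, 1792 and 1801 in OT-1 and 286, 325 and 876 in TG6, with a log2 difference of 2.16 ± 0.58 (adjusted p = 0.0079), and Junb, another subunit, had 8138, 9749 and 5429 in OT-1 and 1852, 2356 and 2304 in TG6, with a log2 difference of 1.81 ± 0.42 (adjusted p = 0.0031). Egr1, a zinc finger factor downstream of ERK, had 1901, 1521 and 1133 in OT-1 and 749, 542 and 281 in TG6, with a log2 difference of 1.61 ± 0.34 (adjusted p = 0.0014). Fosl2 had 2952, 3825 and 277 in OT-1 and 51, 40.5 and 181 in TG6, and was called although the third OT-1 library was close to the third TG6 library. Nr4a1, an orphan nuclear receptor gene used as a reporter of TCR signal strength, had 16128, 14649.5 and 6006 in OT-1 and 2283, 2299 and 6879 in TG6 and was not called (difference 1.77, adjusted p = 0.06). The third OT-1 library lay below the third TG6 library for Nr4a1. Without the third TG6 library its adjusted p was 0.03. Nr4a3 had 2005, 4245 and 255 in OT-1 and 117, 170.0 and 441 in TG6 and was not called either, and neither were Nr4a2, Jun and Fosb. In all, 12 to 17 of the 31 were called higher when 1 of the 6 libraries was left out.

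The windows of 250 bases before the RefSeq start sites of Fos, Junb and Itm2a are shown because these genes were called higher among the signal response genes, beside that of Rag1, which was lower. They read 5′ to 3′ on the strand of the gene, from GRCm38.p6: Fos at chr12:85473640-85473889, plus strand, Junb at chr8:84978749-84978998, minus strand, Itm2a at chrX:107403361-107403610, minus strand and Rag1 at chr2:101649533-101649782, minus strand. Capitals mark TGACG, the core of the CRE to which CREB and ATF factors bind, the TATA box letters TATAAA, and CAGCTG, an E-box, the kind of site to which E proteins bind. Both strands were searched, and on the minus strand the capitals show the reverse complement.
Fos: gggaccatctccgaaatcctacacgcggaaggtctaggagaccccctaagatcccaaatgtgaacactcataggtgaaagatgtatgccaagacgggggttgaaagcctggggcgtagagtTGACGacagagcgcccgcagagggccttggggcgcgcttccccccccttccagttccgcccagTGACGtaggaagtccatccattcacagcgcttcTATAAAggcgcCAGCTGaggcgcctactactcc
Junb: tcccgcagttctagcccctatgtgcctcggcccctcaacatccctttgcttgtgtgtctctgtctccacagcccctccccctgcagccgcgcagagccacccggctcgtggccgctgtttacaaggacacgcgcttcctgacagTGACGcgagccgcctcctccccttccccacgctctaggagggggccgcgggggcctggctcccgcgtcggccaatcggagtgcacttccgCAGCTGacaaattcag
Itm2a: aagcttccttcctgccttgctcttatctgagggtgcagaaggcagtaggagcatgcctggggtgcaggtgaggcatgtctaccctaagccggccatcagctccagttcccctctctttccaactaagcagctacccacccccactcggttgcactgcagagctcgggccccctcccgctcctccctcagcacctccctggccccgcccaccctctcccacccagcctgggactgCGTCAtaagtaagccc
Rag1: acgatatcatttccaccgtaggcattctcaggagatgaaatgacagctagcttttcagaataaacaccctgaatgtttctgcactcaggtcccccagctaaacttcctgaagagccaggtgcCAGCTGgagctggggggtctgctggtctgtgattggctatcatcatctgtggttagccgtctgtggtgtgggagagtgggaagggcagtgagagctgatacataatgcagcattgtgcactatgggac
The Fos window held TGACG at 129 and 66 bases before the start, TATAAA at 33 and CAGCTG at 22. The Junb window held TGACG at 106 and CAGCTG at 16, the Itm2a window held the reverse complement of TGACG at 16, and the Rag1 window held CAGCTG at 128. TGACG occurred in 13 of the 31 windows (41.9%) of the 23 signal response genes with an entry, against 17.8% of 32851 windows of 27025 symbols. For the preselection and CD4+CD8+ stage genes it was 6 of 43 windows. CAGCTG was in 7 of those 43 windows (16.3%), in 9.68% of the signal response windows and in 13% of all windows. TATAAA was in 16.1% of the signal response windows, in 1 of the 43 (2.33%) and in 12.4% of all windows. The motifs were chosen after the values were seen, and a match describes letters only.

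Of 37 genes that attenuate the signal, 13 were higher (35.1%) and 5 lower (13.5%), beside 15.4% and 12.4% of all genes, so that the share of lower genes was near that of all genes. Without the first OT-1 or the first TG6 library 7 were higher, which is also near it. Of 12 ERK phosphatases and Sprouty genes 4 were higher and 0 lower, with Spry4 at 4.01, and 2 or 3 were higher without 1 of the 6 libraries. Csk, the kinase that holds Lck inactive, had 7874, 7911 and 7744 in OT-1 and 4692, 4995 and 4599.6 in TG6, with a log2 difference of 0.72 ± 0.07 (adjusted p = 1.5e-07), and the phosphatase genes Ubash3b and Ptpn2 were also higher. Lower were Cbl (-0.71), a ubiquitin ligase for TCR signalling proteins, Dgkz (-0.46), a kinase that removes diacylglycerol, and the cytokine signal inhibitors Socs3 (-1.12) and Socs1 (-1.13). Of the 30 genes of proximal TCR signalling 7 were higher and 7 lower (23.3% each), beside 15.4% and 12.4% of all genes. The median was 0.02. Under scaling to totals 4 were higher and 9 lower, with a median of -0.09, and under quantile scaling 4 were higher and 11 lower. Prkcq, the kinase that links the TCR to NF-kB, had 9615, 9591 and 9757 in OT-1 and 5283, 5233 and 4898 in TG6, with a log2 difference of 0.91 ± 0.10 (adjusted p = 5.5e-07), and its partner Malt1 was higher by 0.69. Themis, a signalling protein needed for positive selection, had 7551, 7123 and 8552 in OT-1 and 14160.4, 14218 and 15334 in TG6, with a log2 difference of -0.92 ± 0.08 (adjusted p = 3.3e-08). Lck, the kinase that starts the TCR signal, was lower (-0.48), and so was Plcg1, the phospholipase that follows it (-0.60). Of 25 genes of the NF-kB and NFAT families, 14 were higher and 2 lower, which became 9 and 5 under scaling to totals, and 8 or 9 were higher without the first or second library of either line. Relb (1.16), Rel (1.00) and Nfkb1 (0.56), DNA-binding subunits of NF-kB, were higher, and Nfatc3 (-0.85) was lower.

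**Figure D2:**
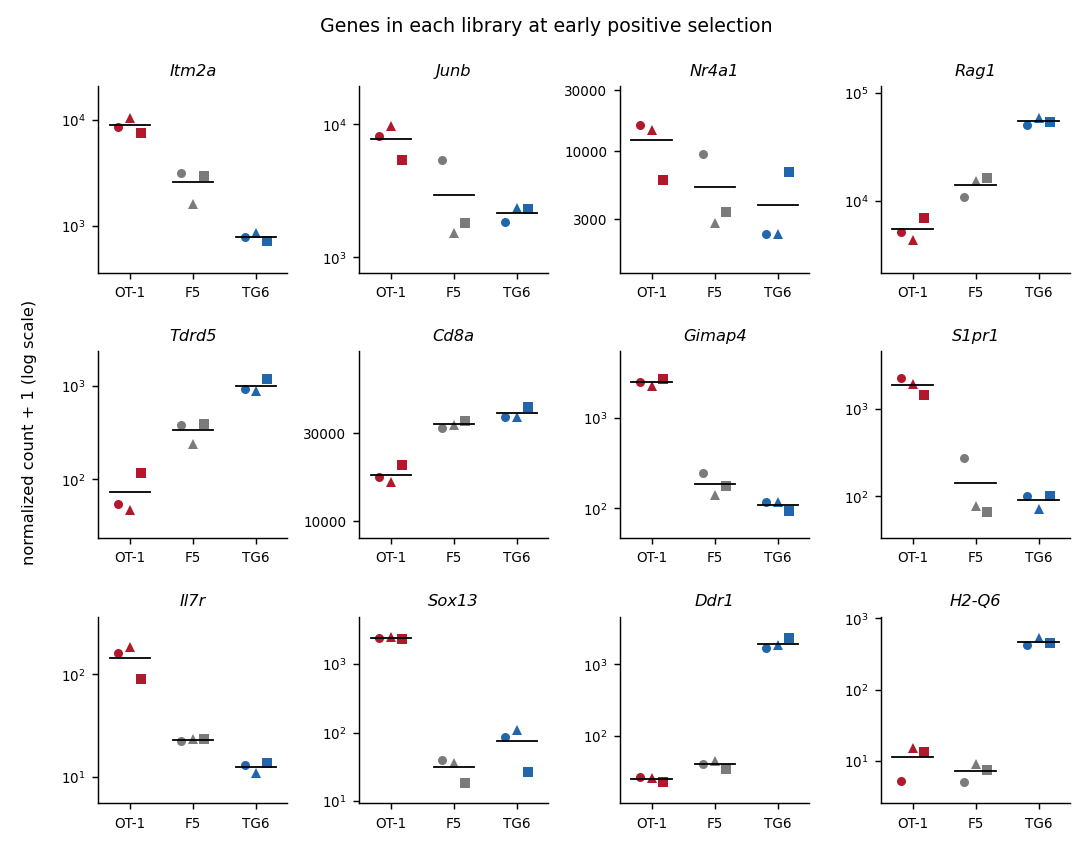
Normalized count + 1 on a log scale for 12 genes in each of the 3 OT-1, 3 F5 and 3 TG6 early libraries, where circles, triangles and squares are replicates 1, 2 and 3 and lines are group means. The OT-1 and TG6 points stand apart in every panel but that of Nr4a1, where the third OT-1 library (6006) lies below the third TG6 library (6879). Of all genes tested, 46.7% were without overlap.

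Genes of the CD4+CD8+ cell before selection were lower in OT-1. The study uses 11 preselection genes as a list, and 10 of them were lower and 0 higher, with a median of -1.50. Tdrd5, a Tudor domain gene known from the germ line, had 53.6, 45.6 and 116 in OT-1 and 929, 891 and 1184 in TG6, with a log2 difference of -3.90 ± 0.44 (adjusted p = 7.5e-07). Slc6a19, a transporter of neutral amino acids, had 86.2, 87.1 and 95.5 in OT-1 and 554, 732 and 1169.8 in TG6, and a log2 difference of -3.11 ± 0.37 (adjusted p = 1.7e-06). Plxnd1, a semaphorin receptor of thymocytes, had 3960.1, 4413 and 3697 in OT-1 and 10321, 11202 and 13969 in TG6, with a log2 difference of -1.55 ± 0.21 (adjusted p = 8.2e-06). Clk3, Glcci1, Spo11 and Wdr78 were among the others called lower.

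Rag1 and Rag2 encode the recombinase that cuts receptor genes. Rag1 had 5183, 4303 and 6987 in OT-1 and 51114, 58364 and 54448 in TG6, with a log2 difference of -3.34 ± 0.88 (adjusted p = 0.007). Rag2 had 183, 176 and 291 in OT-1 and 2322, 2529 and 2074 in TG6, with a log2 difference of -3.44 ± 1.00 (adjusted p = 0.013). OT-1 mice carry a Rag2 knockout, so a Rag2 value cannot be read as regulation. Within 1000000 bases of Rag2 (chr2:100624718-102624718), 4 of the 9 genes tested other than Rag1 and Rag2 were lower and 0 higher. Within 5000000 bases 6 of 41 were lower and 5 higher, beside the 12.4% and 15.4% of all genes. Dntt, which adds bases at receptor junctions, had 7107, 6856 and 9799 in OT-1 and 18095, 17728 and 20437 in TG6, with a log2 difference of -1.26 ± 0.45 (adjusted p = 0.043), and was not called in 7 of its 17 alternative fits. Of the 17 genes of the CD4+CD8+ stage, 10 were lower and 1 higher, and without Rag1 and Rag2 8 of 15 were lower. Bcl2l1, the survival factor Bcl-xL of these cells, had 1207, 1152 and 1367 in OT-1 and 4012, 3663 and 4041 in TG6, with a log2 difference of -1.65 ± 0.20 (adjusted p = 1.7e-06), Bcl6 was lower (-1.57), and the exception was the sialyltransferase gene St6gal1, higher by 1.17.

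All 3 coreceptor genes were lower. Cd8a had 17198, 16123 and 20020.5 in OT-1 and 36458, 36421 and 41213 in TG6, with a log2 difference of -1.10 ± 0.12 (adjusted p = 5.8e-07). Cd8b1 had 7053, 6443 and 8632 in OT-1 and 18092, 18499.7 and 20342 in TG6, with a log2 difference of -1.37 ± 0.15 (adjusted p = 3.5e-07). Cd4 had 7980.0, 8114 and 7985 in OT-1 and 21209, 22398 and 22731 in TG6, with a log2 difference of -1.46 ± 0.50 (adjusted p = 0.032), and was not called in 7 of its 17 alternative fits. Every OT-1 library held all 3 coreceptor transcripts. Among 12 lineage factors 6 were higher and 3 lower. Zbtb7b, which encodes the CD4 lineage factor ThPOK, had 179.6, 254 and 72.7 in OT-1 and 11, 20.1 and 3.71 in TG6, with a log2 difference of 3.82 ± 0.70 (adjusted p = 0.00034), and the CD8 lineage factor Runx3 was higher by 1.21 as well. Gata3 (0.86, called in 3 of the 6 fits without 1 library) and Tox (0.62) were higher, and Myb (-0.89) and Mbd2 (-0.42) lower. Of the 6 E and Id protein genes, 1 was higher and 1 lower, and of 13 Notch pathway genes 2 were higher and 2 lower, 15.4% each and near the shares of all genes. The higher E or Id gene was not called without the second OT-1 or the first or second TG6 library, and 1 Notch pathway gene was lower without the third OT-1 or the first TG6 library.

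Genes of later maturation and exit were mostly higher in OT-1 where called. Of 24, 14 were higher and 1, H2-Q7, was lower, with a median of 0.98, and 2 were lower under scaling to totals, under quantile scaling and in the fit of the 6 libraries alone. Among the late maturation members of the list 7 of 15 were higher. Il7r, the receptor chain for interleukin 7, had 161, 183 and 88.7 in OT-1 and 11.9, 9.94 and 12.6 in TG6, with a log2 difference of 3.48 ± 0.44 (adjusted p = 3.9e-06). Klf2, the factor that switches on S1pr1, had 2100.3, 1882 and 1818 in OT-1 and 270.2, 333 and 375 in TG6, with a log2 difference of 2.58 ± 0.50 (adjusted p = 0.00064). Gimap3 (1.82), Ms4a6b (1.66) and Bcl2 (1.21), a survival factor of single positive cells, were also higher. The sort itself used CXCR4 and CCR7, and both transcripts were called within the same gate. Cxcr4 had 1742, 1425 and 2898 in OT-1 and 5358, 5527 and 4598 in TG6, with a log2 difference of -1.41 ± 0.43 (adjusted p = 0.018), and Ccr7, which guides cells into the medulla, had 863, 826 and 648 in OT-1 and 129.6, 112 and 199 in TG6, with a log2 difference of 2.43 ± 0.35 (adjusted p = 1.8e-05). In neither gene did the lines overlap, nor did they in 46.7% of all genes tested. Cxcr4 was not called without the first or second library of either line (adjusted p up to 0.086), while Ccr7 was called without any 1 of the 6 libraries.

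Among 19 chemokine and guidance receptors 7 were higher and 2 lower, Cxcr4 being the one lost when the first or second library of either line was left out. Ccr4, a receptor seen on thymocytes soon after they are selected, had 4912, 4228 and 3930.1 in OT-1 and 709.6, 786 and 525 in TG6, with a log2 difference of 2.71 ± 0.17 (adjusted p = 1.0e-10). Of 21 genes of adhesion 7 were higher (33.3%) and 3 lower (14.3%), the latter near the 12.4% of all genes. Itgb3, an integrin beta chain, had 1823, 1672 and 1347 in OT-1 and 112, 124 and 75.5 in TG6, with a log2 difference of 3.97 ± 0.20 (adjusted p = 4.1e-12), while Itgav, one of its alpha partners, was lower (-0.82). Itga6 (-1.02) and Icam2 (-0.73) were lower and the adhesion molecule gene Cd2 (1.17) higher.

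The inhibitory receptors of T cells were mostly higher, with 8 of 12 called higher and 1 lower, and of 14 costimulatory ones 2 were higher and 3 lower, beside 15.4% and 12.4% of all genes. Btla, an inhibitory receptor, had 1209.7, 1297 and 1013 in OT-1 and 63.2, 88.6 and 61.1 in TG6, with a log2 difference of 4.04 ± 0.28 (adjusted p = 5.3e-10). Pdcd1, which encodes PD-1, had 406, 340.4 and 610.3 in OT-1 and 96, 84.5 and 83.2 in TG6, with a log2 difference of 2.31 ± 0.43 (adjusted p = 0.00036). Tigit (3.32) and Cd160 (2.72) were higher too. Lag3, a receptor for MHC class II, was the exception and had 26.7, 17.6 and 24.8 in OT-1 and 139.7, 162 and 165 in TG6, with a log2 difference of -2.72 ± 0.53 (adjusted p = 0.00057). Of the costimulatory genes, Cd40lg was higher by 3.80 and Slamf1 lower (-1.50). Slamf6 (-0.92), which like Slamf1 acts in the selection of innate-like T cells, was lower.

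Effector genes were higher where called, with 8 of 19 higher (42.1%) and 0 lower, and 5 higher without the second TG6 library. Of all genes, 15.4% were higher and 12.4% lower. The summed values of NK cell markers, of which Nkg7 is one, were 71 to 130 in OT-1 and 13 to 23 in TG6. Gzma, a granule protease, had 2343, 1803 and 2895 in OT-1 and 540.4, 478 and 410.3 in TG6, with a log2 difference of 2.28 ± 0.53 (adjusted p = 0.0029), and Nkg7 (3.10), Ccl4 (2.96), Maf (1.98) and Batf (1.32) were higher as well. Of 38 cytokine receptor and JAK-STAT genes 9 were higher (23.7%) and 7 lower (18.4%), beside 15.4% and 12.4% of all genes. Beside Il6ra, Il1r1 (4.51) and Il2rb (2.32) were higher, and Il2ra (-1.37), Il17ra (-0.80) and Stat5a (-0.61) lower. Of 29 survival and death genes 6 were higher (20.7%) and 4 lower (13.8%), shares near those of all genes. Bmf, a killer protein of the Bcl-2 family, had 379, 292 and 314 in OT-1 and 1927, 2499 and 3963 in TG6, with a log2 difference of -3.03 ± 0.35 (adjusted p = 1.1e-06), and the death receptor gene Fas was lower (-1.06).

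**Figure D3:**
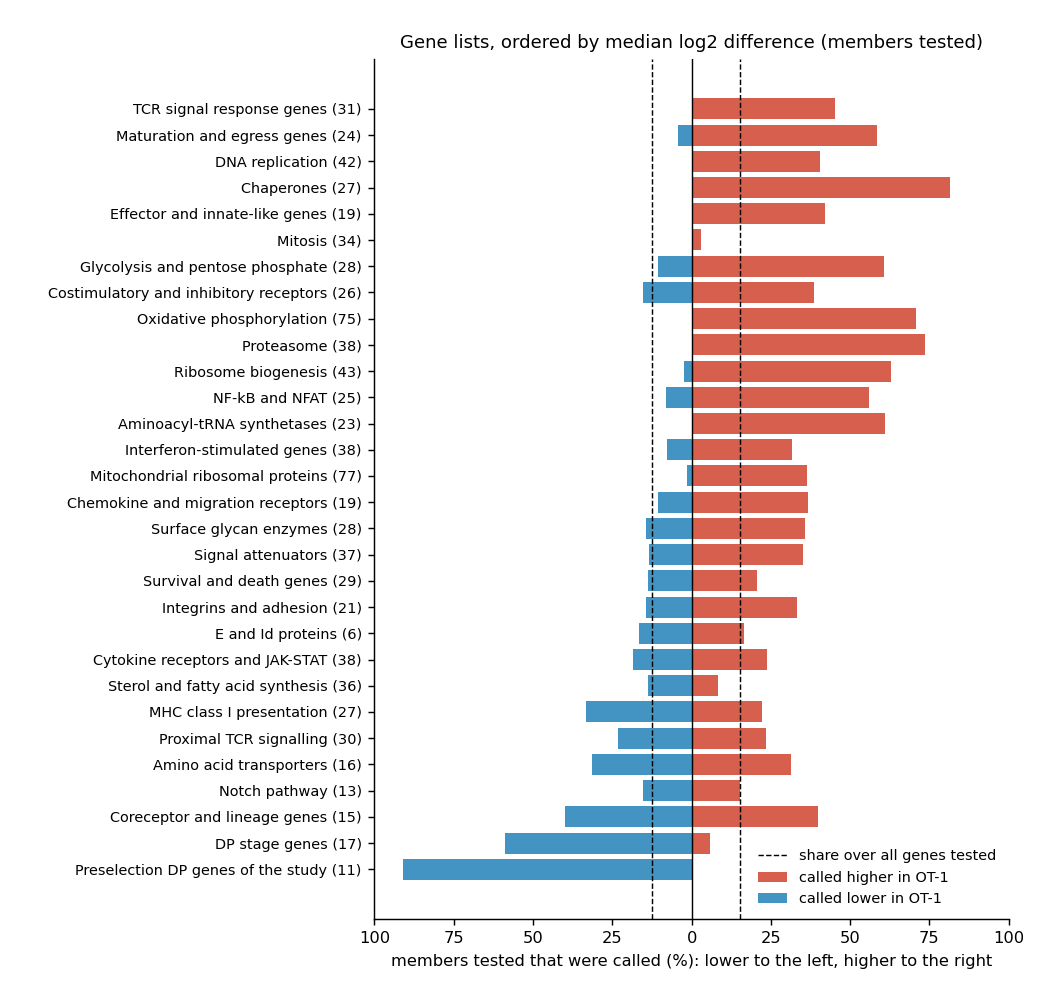
Bars give, for each list of genes other than cell type markers, receptor segments and mitochondrially encoded genes, the percent of members tested that were called higher (right) or lower (left) in early OT-1 cells, and dashed lines the 15.4% and 12.4% of all genes tested. Of the lists shown, the chaperone, proteasome and oxidative phosphorylation lists reach furthest to the right, with 22 of 27, 28 of 38 and 53 of 75 members, and the preselection list furthest to the left, with 10 of 11.

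Genes for making and folding protein were mostly higher where called. Of 27 chaperones 22 were higher (81.5%) and 0 lower, beside 15.4% and 12.4% of all genes, and 18 were higher under scaling to totals. Hsp90ab1 had 32155, 32306 and 32155 in OT-1 and 14243, 14150.2 and 14329 in TG6, with a log2 difference of 1.18 ± 0.15 (adjusted p = 3.0e-06), and the mitochondrial chaperonin gene Hspe1 was higher by 1.14. Of 37 genes of RNA polymerase I and rRNA processing, 27 were higher, among them Npm1 (1.10) and the polymerase subunit Polr1a (0.96), and 1, Wdr12 (-1.44), was lower. None of the 6 genes of the Myc network was called. Of 23 cytosolic aminoacyl-tRNA synthetases, 14 were higher and 0 lower, with Kars at 0.80, and 8 were higher without the second TG6 library. Of 38 proteasome subunits 28 were higher and 0 lower, with Psmb1 at 0.77, which became 19 and 0 under scaling to totals and 18 without the second OT-1 library. Transcripts of ribosomal proteins made up 4.40 to 4.73% of the summed values in OT-1 and 2.72 to 2.81% in TG6.

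Genes of energy metabolism were mostly higher where called. Of 75 nuclear-encoded subunits of oxidative phosphorylation, 53 were higher and 0 lower, with a median of 0.51, and 40 were higher under scaling to totals and 35 without the second OT-1 library. Uqcrh was higher by 0.56 and Cox7a2l by 0.59. Of 77 mitochondrial ribosomal proteins 28 were higher and 1, Mrpl24, lower. Under scaling to totals 16 were higher, as without the second OT-1, the third OT-1 or the first TG6 library, and without the second TG6 library 14. Of the 13 mitochondrially encoded genes, a list added after the values were seen, 8 were higher, but 2 under quantile scaling, 5 without the first OT-1 library and 3 without the second OT-1 or TG6 library. Of 28 genes of glycolysis and the pentose phosphate pathway 17 were higher and 3 lower. Pkm, the last enzyme of glycolysis, had 13511, 14246 and 13995 in OT-1 and 6252, 6889 and 6976 in TG6, with a log2 difference of 1.05 ± 0.09 (adjusted p = 1.3e-08), and Aldoa (1.17) and Ldha (1.27) followed. Ldhb, the other lactate dehydrogenase, was lower (-1.19), as were Pfkp and Pdk1.

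Genes of DNA replication were higher where called, with 17 of 42 higher (40.5%) and 0 lower, beside 15.4% and 12.4% of all genes. Their median was 0.73. Mcm5, a subunit of the replicative helicase, had 5385, 5895 and 5591 in OT-1 and 2609.7, 2426 and 2722 in TG6, with a log2 difference of 1.12 ± 0.27 (adjusted p = 0.0041), and E2f1, which switches on genes of S phase, was higher by 1.14. The count depended on the libraries fitted: it was 8 to 10 without any 1 of the OT-1 libraries or the first or second TG6 library, 15 without the third TG6 library, 28 without the third mature TG6 library and 36 in a fit of the 6 libraries alone, where the other groups do not enter the estimate of the spread. The 34 mitosis genes had a median of 0.60 and 1 of them, Kif23 (0.65), was called, against 25 in the fit of the 6 libraries alone.

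Of 36 genes of sterol and fatty acid synthesis 3 were higher and 5 lower, a share called of 22.2% against the 27.8% of all genes, and 1 was higher without the third TG6 library and 3 were lower without the third OT-1 or the first TG6 library. Among the lower were the sterol exporter gene Abcg1 (-1.23) and the regulator Srebf1 (-0.91). Of 16 amino acid transporters, 5 were higher, among them Slc7a5 (1.02, called in 4 of the 6 fits without 1 library), and 5 lower. Under scaling to totals 8 were lower, and 3 were higher without the second OT-1 or the second TG6 library. Of 13 sialyltransferases 7 were higher and 0 lower, while of 15 other enzymes of surface glycans 3 were higher, with B4galt1 and Gcnt1 among them, and 4 lower, with the branching enzyme genes Mgat1, Mgat4a and Mgat5 among them. Without the second OT-1 library 2 of these other enzymes were lower, Mgat4a and Mgat5.

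MHC class I chains were mostly lower in OT-1 where called, and interferon-stimulated genes mostly higher. Of 15 class I chains 8 were lower and 1, H2-Q2 (1.10), higher. H2-D1, a classical class I gene, had 1573, 1639.9 and 1568 in OT-1 and 2767, 2873 and 2676 in TG6, with a log2 difference of -0.80 ± 0.16 (adjusted p = 0.00061), and H2-K1 had 1058, 1044 and 895 in OT-1 and 1153, 1138 and 1117 in TG6 and was not called (adjusted p = 0.4). From the first to the last H2 gene of chromosome 17 (chr17:33974659-37483552), 149 genes were tested, of which 19 were higher (12.8%) and 41 lower (27.5%), beside 15.4% and 12.4% of all genes. In 25 (16.8%) the call and direction were kept through the 3 stages, beside 4.32% of all genes. The 41 lower genes include Vars2 (-2.06), Gtf2h4 (-3.24) and Ddr1, which are not MHC genes, and Vars2 and Gtf2h4 were not called at the later stages. The reads were aligned to the mm10 genome, which holds the b haplotype, so for these genes allele, alignment and level cannot be told apart. Nlrc5, which activates class I genes, was higher by 1.18. Of 38 interferon-stimulated genes 12 were higher (31.6%) and 3 lower (7.89%), beside 15.4% and 12.4% of all genes. Oas3 (1.63), Isg15 (1.43) and Irf7 (1.01) were higher and Igtp (-1.74) and Slfn2 (-0.74) lower. Without the first OT-1 library 7 were higher, and without the third TG6 library 6. At late positive selection 1 was higher and 6 were lower, and in mature cells 0 and 19. Without the third mature TG6 library these were 1 and 8 at the late stage and 0 and 25 in mature cells. The difference between stages was not tested for the list.

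Segments of the TCR alpha locus were mostly lower in OT-1, whose labels name a Rag2 knockout while those of TG6 name none. In the methods of the study the TG6 H2b/d line served for RNA sequencing, and a separate Rag2 knockout of it for measuring self-reactivity. Of 91 alpha V segments tested 80 were lower in OT-1 and 2 higher, with a median of -3.75. The 2 higher segments, Trav14d-1 and Trav14n-1, had the same values in every early OT-1 and TG6 library, and their values are uncertain where the counting could split reads between similar copies. Over the alpha and delta locus (chr14:52427928-54224206), 83 of 98 genes were lower. Trac, the alpha constant segment, had 19785, 22614 and 17664 in OT-1 and 41397, 51783 and 53883 in TG6, with a log2 difference of -1.29 ± 0.14 (adjusted p = 4.5e-07). Trdc, the delta constant segment, had 7406, 6541 and 7244 in OT-1 and 2029, 1699 and 1838 in TG6, with a log2 difference of 1.93 ± 0.19 (adjusted p = 1.6e-07), and its F5 mean was 9389 ± 611 (SD, n = 3). The segment lists were added after the values were seen.

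Markers of other cell types were not even between the lines. All 5 gamma delta markers tested (Trdc, Sox13, Tcrg-C1, Tcrg-C2 and Blk) were higher in OT-1, and their summed values were 9435 to 10530 in OT-1, 8909 to 10060 in F5 and 1912 to 2243 in TG6. Most of that sum was Trdc. OT-1 and F5 mice carry knockouts of the recombinase that cuts receptor genes, so these values cannot be read as a share of gamma delta T cells. Tcrg-C1 had 256, 102 and 275 in OT-1 and 11.9, 21.9 and 7.74 in TG6. Of 9 dendritic cell markers 6 were higher and 0 lower, with sums of 864, 1031 and 403 in OT-1, 105 to 545 in F5 and 226 to 248 in TG6, and Clec9a was at 0 in all TG6 libraries. Without the first or second OT-1 library 3 were higher. Of 8 macrophage markers 5 were higher and 1 lower, with sums of 389, 354 and 226 in OT-1 and 276 to 348 in TG6, and 1 was higher without the first OT-1, the second OT-1 or the second TG6 library. C1qb had 30.0, 32.1 and 4.93 in OT-1 and 0, 0 and 7.74 in TG6, so that the third library of each line was the one nearest to the other line, as it was for Nr4a1 and Fosl2. Of the 3 NK cell markers tested 2 were higher. Of 5 B cell markers 1 was lower, of 5 erythroid markers 0 were called, of 6 double negative markers 1 was higher and 1 lower, and of 3 markers each of thymic epithelium and of stroma 1 was higher, a call lost in both lists without any 1 of the first or second libraries of either line or the third TG6 library. The part of such cells in the differences of effector, interferon and signal response genes was not tested. The labelled population itself was plain in every library, with summed values of 11 CD4+CD8+ markers at 79971 to 93611 in OT-1, 123466 to 139562 in F5 and 183019 to 200614 in TG6. Rag1, knocked out in F5 mice, is among the 11, with means of 5491 in OT-1, 14083 in F5 and 54642 in TG6. Part of the gap between the sums was therefore Rag1. Of the 11 markers, 5 were called lower in OT-1, 3 without the first or second library of either line and 8 without the third mature TG6 library.

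F5 mice carry a Rag1 knockout, so the F5 values of Rag1 cannot be read as regulation. The way F5 cells change from early to late positive selection was used as a measure of progress through selection that shares no library with OT-1 or TG6. Over all genes tested, 12.7% rose and 14.0% fell in F5 between these stages. Of the 2520 genes higher in OT-1 at the early stage, 572 (22.7%) rose and 518 (20.6%) fell. Of the 2035 lower genes, 300 (14.7%) rose and 318 (15.6%) fell. Of the genes not called, 10.2% rose and 12.3% fell. All these calls rest on 1 estimate of the spread per gene, and the shares were not tested against each other. Of 24 maturation genes 18 rose and 0 fell in F5, and of the 17 genes of the CD4+CD8+ stage 3 rose and 12 fell, or 3 and 10 of 15 without Rag1 and Rag2, the same sides as in OT-1. For oxidative phosphorylation 0 rose and 38 of 75 fell, for the proteasome 0 rose and 20 of 38 fell, and for DNA replication 0 rose and 41 of 42 fell, the opposite side to OT-1.

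**Figure D4:**
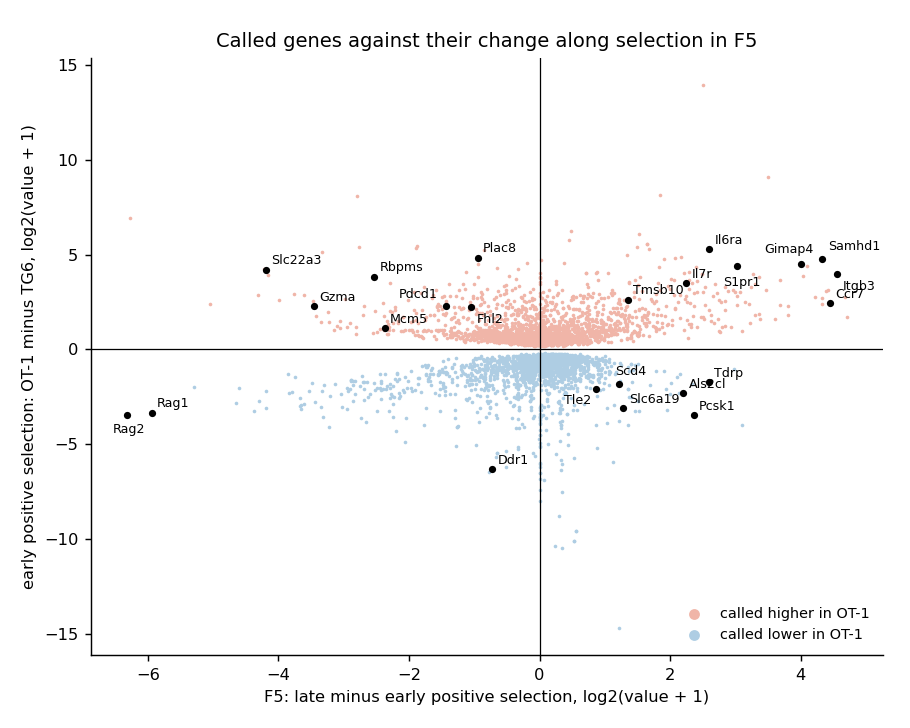
Each point is a gene called at early positive selection, with its F5 late minus early log2 difference on the x axis and its OT-1 minus TG6 log2 difference on the y axis, red for higher and blue for lower in OT-1. Black points are named genes, with Gimap4 at the upper right, Rag1 (knocked out in F5 mice) at the lower left, Plac8 (-0.95 and 4.83) at the upper left and Pcsk1 (2.36 and -3.48) at the lower right.

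Single genes went against the F5 direction. Plac8 had 869, 759 and 768 in OT-1 and 27.1, 26.3 and 27.5 in TG6, with a log2 difference of 4.83 ± 0.34 (adjusted p = 1.0e-09), and fell in F5 by 0.95 on the log2 scale. Slc22a3 (4.20), an organic cation transporter, Rbpms (3.84), an RNA-binding protein, Fhl2 (2.24), a LIM domain protein, and Pdcd1 and Gzma were also higher in OT-1 and fell in F5. Pcsk1 had 16.8, 21.4 and 21 in OT-1 and 195, 277 and 220.3 in TG6, and rose in F5 by 2.36. Slc6a19, Als2cl (-2.31), the corepressor gene Tle2 (-2.10), the desaturase gene Scd4 (-1.80) and Tdrp (-1.72) were lower in OT-1 and rose in F5.

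F5 at the early stage was compared with either line. OT-1 and F5 differed in 2077 genes (12.7%), with 7.81% higher and 4.88% lower in OT-1. F5 and TG6 differed in 1058 (6.46%), with 3.12% higher and 3.35% lower in F5. The 2077 became 1282 without the second early OT-1 library. The 1058 became 646 without the third early TG6 library and 1685 without the third mature TG6 library. Both comparisons share libraries with that of OT-1 and TG6, so the values are given side by side. For Itm2a the means were 8881 in OT-1, 2564 in F5 and 785 in TG6, for Bcl2l1 1242, 1952 and 3905, and for Slamf1 715, 1257 and 2027. In these 3 genes F5 stood between the lines. In others F5 was the nearer to TG6: the means of Ccr4 were 4357, 981 and 674, and those of Btla 1173, 137 and 71.

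At late positive selection, with 3 OT-1 and 2 TG6 libraries, 2545 genes (15.5%) were called between the lines, and 3301 without the third mature TG6 library. In mature CD8 single positive cells it was 1595 (9.74%), but 4446 without the third TG6 library of that stage, and 708 (4.32%) kept 1 direction and a call through the 3 stages. At the late stage 9.34% of the genes tested were higher and 6.21% lower, and in mature cells 4.67% and 5.08%. The mature counts were 764 higher and 831 lower, but 2454 and 1992 without the third TG6 library of that stage. The difference between the stages was tested directly as an interaction. It was called for 334 genes (2.04%) between the early and late stages, with 1.09% more positive at the early stage, and for 687 (4.20%) between the early and mature stages, with 2.91% more positive and 1.28% more negative at the early stage. Without the third mature TG6 library these were 563 and 1153. The 334 became 201 or 191 without the first or second early OT-1 library, and 182 without the third early TG6 library. Gimap4 differed by 4.51 early, 0.50 late and 0.28 in mature cells. Izumo1r, the folate receptor family gene of T cells, had early values of 698, 749 and 649 in OT-1 and 111, 101 and 89.1 in TG6 and differed by 2.79, 0.03 and -1.03. Itgb3 differed by 3.97, 1.07 and 0.87. These 3 genes were picked by a small p of the interaction among genes called at the early stage, which favors a larger early difference. Ddr1 differed by -6.29, -3.71 and -1.29, and Il6ra by 5.27, 2.95 and 1.19. Olfr524, at 6.24, 5.17 and 3.31, and Hoxc9, at -6.89, -5.86 and -5.93, were called at all 3.

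**Figure D5:**
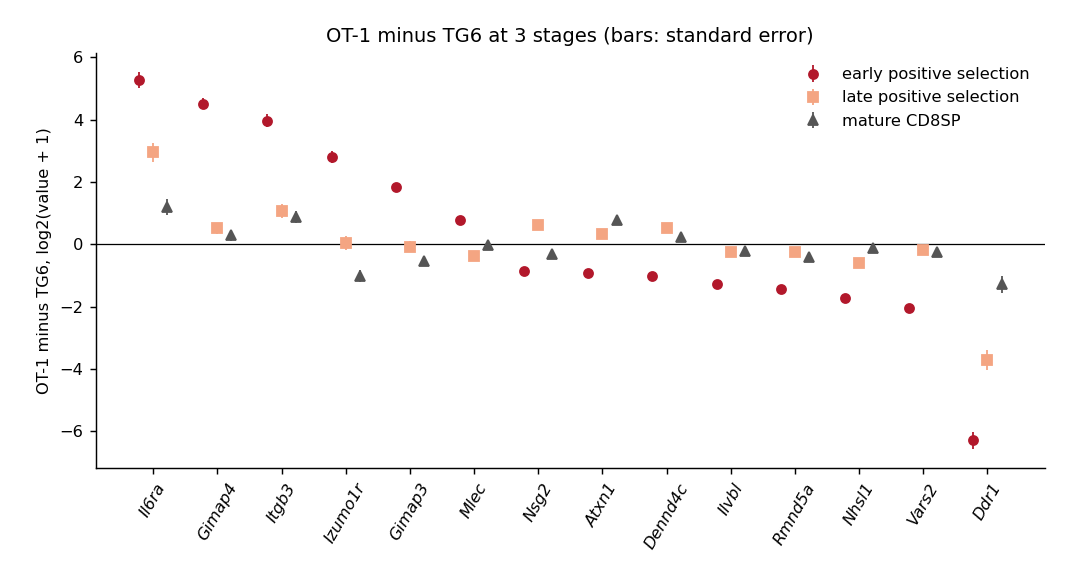
OT-1 minus TG6 log2 differences of named genes by stage (early, late and mature CD8 single positive cells), with bars for the standard error. Gimap4, Itgb3 and Izumo1r start above 2 and lie nearer to 0 at the later stages, and Ddr1 rises from -6.29 to -1.29.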

How the data were processed

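The deposited signal values are normalized counts of the whole series. Per the methods of the study and the submitters' processing notes, the authors used Trimmomatic (0.32) for trimming, Bowtie2 (2.3.2) for alignment to mm10, RSEM (1.2.31) for quantification and the median of ratios of DESeq2 for scaling, all before deposit. The values are not whole reads, so no test on counts was run, and the depth of a library in reads is not given in the table.

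From these values log2(value + 1) was computed for the 16372 of 46517 symbols that reached 10 in 2 or more of the 26 libraries. A model of 9 group means was fitted with limma (3.58.1, under R 4.3.3), which left 17 degrees of freedom for the spread and used a trend of the prior variance with expression. Differences between stages were tested as interactions in that fit. The Benjamini-Hochberg adjustment was made per comparison, and genes were called under 0.05. No covariate was used. A group at or under 3 in all its libraries was set to a floor of 3 for a fold.

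The 30 gene lists (881 symbols, 859 tested), 10 marker lists, the tests and the alternatives were chosen with earlier results of these data known, and the 11 preselection genes are the list of the study. The named genes are in each direction the 12 called genes of largest fold change without overlap and with a higher mean of at least 100 (T cell receptor and immunoglobulin segments, ribosomal protein genes, the ion channel genes of the study, predicted genes, Mme, Pagr1a and Plch1 left out), the 8 per direction with the largest difference of means beyond 2-fold without overlap, up to 4 called members per direction of each list, the 5 per direction with the smallest p in each comparison of stages, and the 6 per direction with the largest fold change against the F5 direction. Genes named beyond these, such as list exceptions and the genes of the TCR loci, were chosen after their values were seen. Positions are from GENCODE vM21 on GRCm38 and covered 92.8% of the genes tested. Promoter windows are from RefSeq. A few genes are not reported here.

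In simulated data with the real means and spread, the fit called 48 of 100 genes changed by a log2 of 1, 73 of 100 changed by 2 and 12 of 16172 unchanged genes. Same-numbered OT-1 and TG6 libraries correlated in their deviations from the group means at −0.072 to −0.0083, so the numbers do not pair them. The alternatives were other pseudocounts and filters, scaling to totals and by quantiles, a fit of the 6 libraries alone, a replicate block, each of the 6 libraries left out and, chosen after seeing the data, TG6 mature replicate 3 left out.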

Additional observations from a re-analysis of the deposited data

Results flagged for a closer look

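For 14 genes the OT-1 minus TG6 difference at early positive selection was not the same as at a later stage, by an interaction term in the limma fit, and each was among the 5 genes per direction with the smallest p. The difference at the early stage minus that at the late stage was 4.01 for Gimap4 (adjusted p = 5.7e-09), 2.90 for Itgb3, 2.76 for Izumo1r (both 1.6e-05), and 1.16 for Mlec, which encodes a lectin of the endoplasmic reticulum. It was −1.16 for Rmnd5a, −1.48 for Nsg2, −1.87 for Vars2, −1.02 for Ilvbl and −1.52 for Dennd4c. Vars2 encodes the mitochondrial valyl-tRNA synthetase and lies within the H2 region.

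Against mature CD8 single positive cells the difference was 4.23 for Gimap4 (adjusted p = 6e-10), 4.07 for Il6ra, 3.82 for Izumo1r (3.5e-08), 3.09 for Itgb3 and 2.35 for Gimap3. It was −5.01 for Ddr1 (1.4e-07), −1.80 for Vars2, −1.06 for Ilvbl, −1.70 for Atxn1 and −1.60 for Nhsl1. Gimap4, Itgb3, Izumo1r, Vars2 and Ilvbl appear in both comparisons, which share the early libraries. Without the third mature TG6 library all 10 differences against mature cells were called in the same direction.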

How the results depend on the processing

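The 4555 genes called at early positive selection became 4023 to 5142 under other pseudocounts, filters and scalings, in the fit without a trend and in the fit of the 6 libraries alone, 3227 to 3981 without 1 of the 6 libraries, and 5395 without TG6 mature replicate 3, which stands apart. A replicate block gave 4739, and 357 and 766 for the differences of stages. No early OT-1 library correlated best with the TG6 library of its own number, and the block moved none of the counts over all genes by over 1.5 times. Of 1020 fits of the 60 genes named by rank, 1005 kept the call and 15 lost it (Cd4 in 7, Dntt in 7 and mt-Nd5 in 1), and none changed sign. The smaller comparisons depended more on single libraries. The 334 genes that differed between the early and late stages became 201 without OT-1 early replicate 1, 191 without replicate 2, 182 without TG6 early replicate 3 and 563 without TG6 mature replicate 3. The 687 between the early and mature stages became 494 to 1153, the highest without TG6 mature replicate 3. OT-1 against F5 gave 1282 genes without OT-1 early replicate 2 and 2799 at most, and F5 against TG6 gave 646 without TG6 early replicate 3, 696 without replicate 2 and 1685 without TG6 mature replicate 3. The causes were not tested. F5, late and other mature libraries were not left out in turn. Low genes are limited by their few reads, and those near the floor have folds that rest on it.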
